A study of Mus musculus with 6 samples.

Results

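Atp1b1, Atp1b2, Slc12a2, Slc12a4 and Slc12a5 are 5 of the 32285 genes counted in nuclei of the mouse brain, and were picked by symbol as beta subunits of the sodium-potassium pump and as cation-chloride cotransporters. Nuclei came from brains of wildtype C57BL/6 mice, 6 weeks after a sham operation or after 5/6 nephrectomy, which removes most of the kidney tissue. All 6 libraries, 3 sham and 3 nephrectomy, share strain and genotype. The labels give no age of the mice, and they do not say that each library was a separate animal, so p-values measure the spread between these libraries, which may be technical. The design text places the study in the cortex, whereas a large gated class carried the markers of striatal projection neurons, such as Rgs9, Drd1 and Drd2.

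The sodium-potassium pump moves sodium out of the cell and potassium in. It pairs a catalytic alpha subunit with a beta subunit that brings the pump to the membrane, and Atp1b1 and Atp1b2 encode beta 1 and beta 2. The sodium and potassium gradients drive the cation-chloride cotransporters: Slc12a2 (NKCC1) carries chloride into cells, while Slc12a5 (KCC2) and Slc12a4 (KCC1) carry it out together with potassium. In mature neurons KCC2 keeps chloride low, which lets GABA inhibit, and in the brain it is known as a neuronal gene. Background knowledge also links beta 2 to astrocytes, which clear potassium around active neurons.

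Each nucleus was given a class from the unique molecular identifiers (UMIs, counted molecules) of marker genes that exclude the 5 genes. A class needed at least 4 marker UMIs from at least 2 markers, making at least 75% of all marker UMIs in the nucleus. The classes held 786 excitatory neuron-like, 473 interneuron-like, 3990 striatal projection neuron-like, 1413 astrocyte-like, 2256 oligodendrocyte-like, 261 oligodendrocyte precursor-like, 235 microglia-like and 175 endothelial-like nuclei. In each of these classes at least 6 of its own markers were found in 10% or more of the nuclei, and no marker of another class was among its 10 leading genes. The gate selects on these same markers, so this describes the gated nuclei and is no independent check of the class names. Levels are UMIs per 1000000 UMIs of the class in a library (CPM). They count introns too and are not divided by gene length, so they are compared within a gene and not between genes.

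The libraries differed in ways that the groups do not explain. Total UMIs ran from 15691316 to 41532967 per library over 2637 to 14756 barcodes, and 7.25% to 43.3% of the kept nuclei could be gated. Sham 3 and nephrectomy 1 had long barcode lists. Nephrectomy 1 gave 49 excitatory neuron-like nuclei with a median of 1033 UMIs, against 101 to 205 nuclei with medians from 2976 to 8465 in the other 5 libraries. Pairs of libraries shared 1 to 50 barcodes, at most 0.451% of the smaller list. Because 4 of the markers (Pde10a, Dcx, Sox11 and Adarb2) were found in nuclei of several classes, a gate without them, chosen after the marker counts were seen, is given beside the results. It held 3220 excitatory neuron-like and 2656 striatal projection neuron-like nuclei.

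On the GRCm38 mouse genome (GENCODE M21), Atp1b1 is at chr1:164437109-164458355 and Atp1b2 at chr11:69599736-69605942, both on the minus strand. Slc12a4 is at chr8:105943590-105966097 on the minus strand and Slc12a5 at chr2:164960802-164999731 on the plus strand. All 5 genes are protein-coding. Atp1b1 shares 617 bases with Nme7 and Slc12a4 shares 2254 bases with the antisense gene Gm16156, in both cases on the opposite strand. Whether counting used strand is not given in the sources used here, so part of these 2 genes' UMIs may belong to the partner.

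Slc12a5 and Slc12a4 are both outward cotransporters. Yet Slc12a5 was high in neuron-like nuclei, and Slc12a4 was highest in astrocyte-like and oligodendrocyte precursor-like nuclei. Their promoters are shown for that contrast. RefSeq (GRCm38.p6) gives Slc12a5 starts with windows at chr2:164960596-164960895 and chr2:164967738-164968037, plus strand, and the Slc12a4 window is chr8:105966066-105966365, minus strand. Each runs 5′ to 3′ along the gene, 250 bases before to 50 after the start. Capitals mark GC boxes (GGGCGG) and the E-box CACGTG, searched on both strands.
Slc12a5, first start: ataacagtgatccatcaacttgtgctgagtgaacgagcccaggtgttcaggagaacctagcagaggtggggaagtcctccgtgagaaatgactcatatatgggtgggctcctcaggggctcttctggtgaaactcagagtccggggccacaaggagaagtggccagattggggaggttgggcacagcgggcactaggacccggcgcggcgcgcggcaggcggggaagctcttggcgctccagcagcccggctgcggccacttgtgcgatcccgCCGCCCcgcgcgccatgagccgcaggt
Slc12a5, second start: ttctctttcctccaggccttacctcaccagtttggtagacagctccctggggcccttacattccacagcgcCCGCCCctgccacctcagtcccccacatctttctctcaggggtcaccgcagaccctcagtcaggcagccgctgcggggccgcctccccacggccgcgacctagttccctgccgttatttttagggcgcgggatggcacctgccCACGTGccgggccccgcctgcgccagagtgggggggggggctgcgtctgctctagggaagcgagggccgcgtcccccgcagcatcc
Slc12a4: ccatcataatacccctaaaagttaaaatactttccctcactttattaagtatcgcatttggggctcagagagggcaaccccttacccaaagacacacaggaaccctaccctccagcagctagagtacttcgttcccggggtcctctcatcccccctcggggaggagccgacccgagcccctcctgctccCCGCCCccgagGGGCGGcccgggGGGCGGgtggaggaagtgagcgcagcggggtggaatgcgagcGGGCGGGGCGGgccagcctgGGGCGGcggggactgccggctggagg
The Slc12a4 window held 6 GC boxes, of which a pair overlap by a base, and each Slc12a5 window held 1. The second Slc12a5 window also held 1 CACGTG. Of 32851 RefSeq promoter windows of the same length, 35.7% held a GC box, 7.15% CACGTG and 13.6% a TATA box (TATAAA), which none of the 3 windows had. CpG pairs numbered 21 in each Slc12a5 window and 20 in the Slc12a4 window. The counts are from transcripts' 3′ ends and do not tell the Slc12a5 starts apart.

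Among the classes with values by library, Atp1b1 was found in every one and was highest in neuron-like nuclei. In interneuron-like nuclei its level was 988.9, 478.0 and 659.8 CPM in sham 1 to 3 and 820.0, 712.6 and 841.8 CPM in nephrectomy 1 to 3. The mean was 750.2 ± 175 CPM (SD, n = 6) there, 599 ± 165 CPM in excitatory neuron-like and 497 ± 117 CPM in striatal projection neuron-like nuclei. Astrocyte-like nuclei had 343 ± 94.2 CPM and oligodendrocyte-like nuclei 304 ± 149 CPM (n = 6). The remaining classes stood close to these, at 294 ± 133 CPM in endothelial-like (n = 4), 293 ± 128 CPM in microglia-like (n = 3) and 232 ± 67.0 CPM in oligodendrocyte precursor-like nuclei (n = 4). Libraries differed within a class too: sham 2 was the lowest library in all 5 classes that every library held, and sham 1 or nephrectomy 1 the highest.

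**Figure D1:**
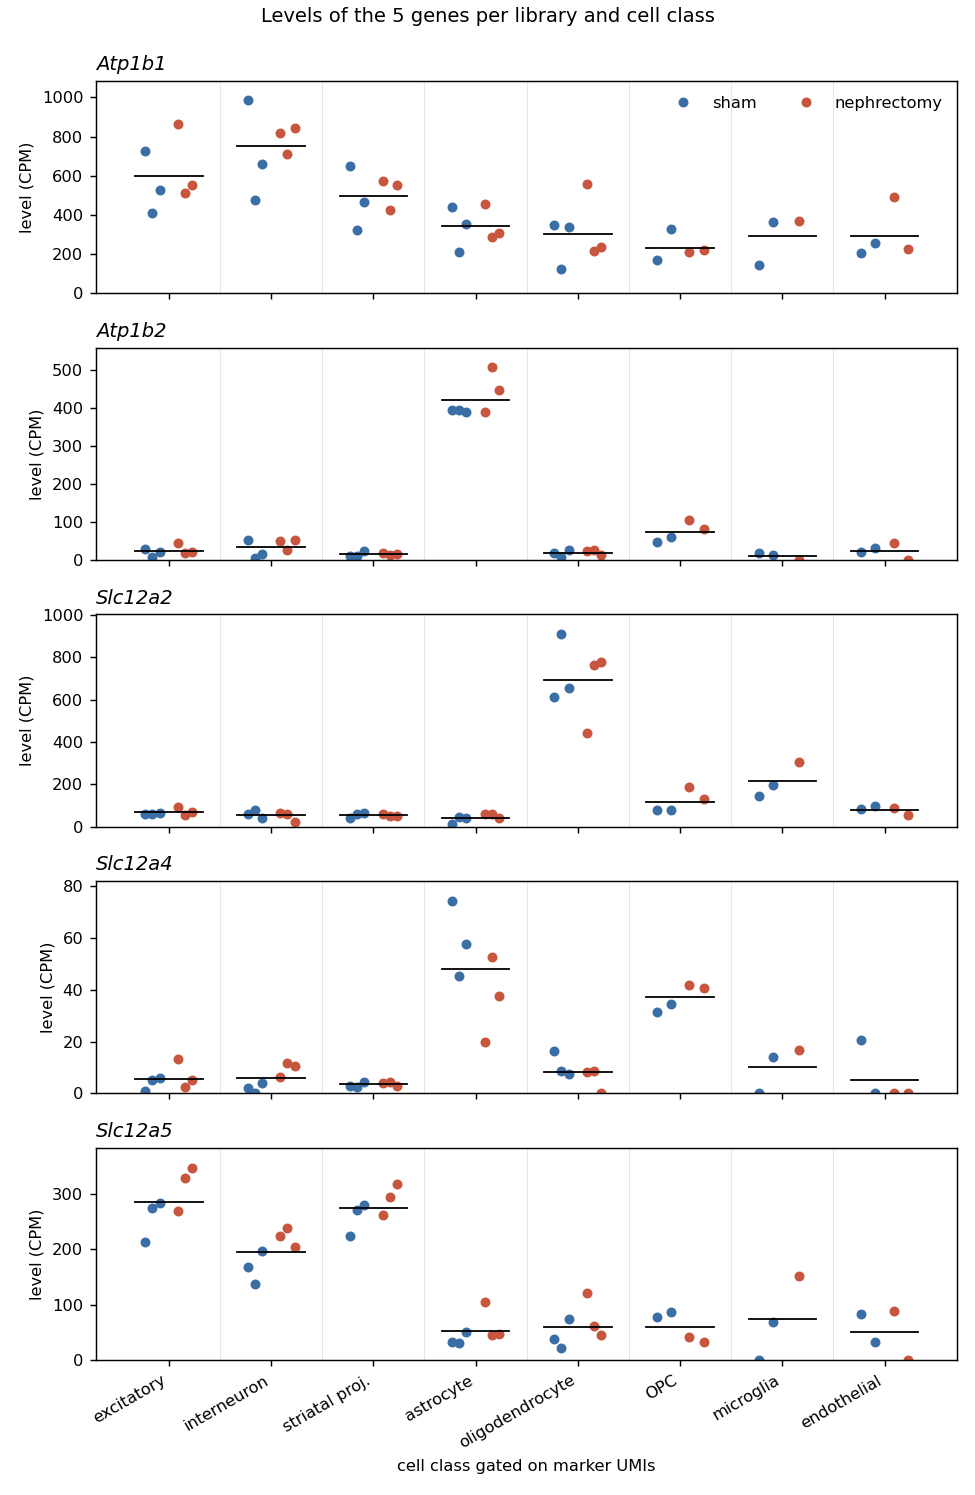
Level of each gene (CPM, linear axis from 0, its own scale in each panel) by cell class. A point is a library, blue for sham and red for nephrectomy, ordered 1 to 3 within a group, and the line is the mean over libraries. OPC stands for oligodendrocyte precursor. Atp1b2 is high in astrocyte-like nuclei and Slc12a2 in oligodendrocyte-like nuclei, Slc12a5 is high in the 3 neuron classes, and Atp1b1 is spread over all 8.

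Among classes with values by library, Atp1b2 was highest in astrocyte-like nuclei. These had 394.9, 394.9 and 388.3 CPM in sham 1 to 3 and 389.1, 505.6 and 447.5 CPM in nephrectomy 1 to 3, a mean of 420.1 ± 47.5 CPM. In every library the other classes were far below. Oligodendrocyte precursor-like nuclei came next at 73.2 ± 25.01 CPM (n = 4, 28 UMIs). The other 6 classes had means from 10.7 CPM in microglia-like (2 UMIs) to 34.0 CPM in interneuron-like nuclei. The ratio of means over the other classes held by all 6 libraries ran from 12.4-fold (interneuron-like) to 27.7-fold (striatal projection neuron-like).

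Slc12a2, the chloride importer (chr18:57878678-57946821, plus strand, GRCm38), was highest in oligodendrocyte-like nuclei among the classes with values by library, with 612.9, 908.7 and 653.6 CPM in the sham libraries and 443.9, 763.6 and 776.9 CPM in the nephrectomy libraries. The mean was 693 ± 160 CPM (n = 6). Microglia-like nuclei had 215 ± 81.3 CPM (n = 3, 40 UMIs) and oligodendrocyte precursor-like nuclei 118 ± 52.3 CPM (n = 4). Neuron-like nuclei held a low level, from 53.4 ± 8.87 CPM in striatal projection neuron-like to 67.9 ± 13.02 CPM in excitatory neuron-like nuclei, and astrocyte-like nuclei 43.4 ± 16.9 CPM. Oligodendrocyte-like nuclei were 10.2-fold to 15.99-fold above the other classes held by all 6 libraries.

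Slc12a4, a potassium-chloride cotransporter found in many tissues, was the most sparsely counted member. Its level in astrocyte-like nuclei was 74.3, 45.2 and 57.5 CPM in sham and 19.8, 52.9 and 37.8 CPM in nephrectomy libraries, a mean of 47.9 ± 18.5 CPM from 159 UMIs. Oligodendrocyte precursor-like nuclei had 37.1 ± 4.92 CPM (n = 4, 15 UMIs). With the gate that leaves out 4 markers, the 5 libraries that held both classes had 49.1 ± 14.7 CPM in astrocyte-like and 45.6 ± 10.0 CPM in oligodendrocyte precursor-like nuclei, and astrocyte-like nuclei were higher in 3 of the 5. All other classes averaged 3.49 to 10.3 CPM, with 2 UMIs in microglia-like and 1 in endothelial-like nuclei.

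Slc12a5, the chloride exporter of mature neurons, was high in the 3 neuron classes. Excitatory neuron-like nuclei had 213.1, 275.1 and 282.7 CPM in sham and 269.9, 328.2 and 347.3 CPM in nephrectomy libraries. Means were 286 ± 47.4 CPM there, 275 ± 31.6 CPM in striatal projection neuron-like and 195 ± 36.9 CPM in interneuron-like nuclei. In glial and endothelial classes they ran from 50.97 ± 42.5 CPM (endothelial-like, n = 4, 8 UMIs) to 73.9 ± 76.1 CPM (microglia-like, n = 3, 14 UMIs). Excitatory neuron-like nuclei were 4.73-fold above oligodendrocyte-like and 5.49-fold above astrocyte-like nuclei.

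Neighbours in these orders were compared within each library, on log2(CPM + 1), by an exact 2-sided sign-flip permutation test. None of the 35 neighbour pairs passed 0.05 after Benjamini-Hochberg adjustment, and the lowest adjusted p was 0.547. No pair could have passed, since 13 of the 35 pairs had 6 libraries and the lowest adjusted p they allow is 0.0841. The 2 pairs at the exact permutation p of 0.03125, the smallest that 6 libraries allow, were Atp1b1 in striatal projection neuron-like over astrocyte-like and Slc12a5 in striatal projection neuron-like over interneuron-like nuclei. In a comparison added after the levels were seen, the highest class was set against each other class held by all 6 libraries. It was higher in 6 of 6 libraries in 18 of 20 pairs (exact permutation p = 0.03125, adjusted p = 0.0347). The exceptions were Atp1b1 in interneuron-like over excitatory neuron-like nuclei (5 of 6 libraries, 1.25-fold, p = 0.0625 by the exact permutation test) and Slc12a5 in excitatory neuron-like over striatal projection neuron-like nuclei (5 of 6, 1.04-fold, exact permutation p = 0.25). Since the highest class was picked from the same values, these p-values are descriptive.

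Levels were also taken in finer gates within the neurons. Striatal projection neuron-like nuclei with UMIs of Drd1 (1044 nuclei) had 268 ± 33.9 CPM of Slc12a5 and 507 ± 123 CPM of Atp1b1 (n = 6 libraries). Those with Drd2 (398 nuclei) had 276 ± 36.0 and 456 ± 90.9 CPM in the same order. The receptors mark the 2 output pathways of the striatum. Within a library, Atp1b1 was higher in the Drd1 nuclei in 5 of 6 libraries, by 51.1 ± 52.3 CPM (mean difference and SD), and Slc12a5 in 3 of 6, with a mean difference of -8.28 ± 29.8 CPM. These differences were taken after the levels were seen and are described without a test. Interneuron-like nuclei with Vip (141 nuclei, n = 4) had 199 ± 40.0 CPM of Slc12a5 and 775 ± 177 CPM of Atp1b1.

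Classes too small for values by library were pooled over libraries, with exact 95% Poisson intervals that cover counting error only. The 49 mural-like nuclei, pericytes and smooth muscle of vessels by their markers, had 24 Atp1b2 UMIs, 406 CPM (260.3 to 604), and 40 Slc12a2 UMIs, 677 CPM (484 to 922). The 20 fibroblast-like nuclei had 28 Atp1b1 UMIs, 729 CPM (485 to 1054), and 29 Slc12a2 UMIs, 755 CPM (506 to 1085). They had no Atp1b2 UMI, with an interval of 0 to 96.1 CPM. The 44 neuroblast-like nuclei, with markers of young migrating neurons, had 93 Atp1b1 UMIs, 935 CPM (755 to 1145), 21 Slc12a5 UMIs, 211 CPM (131 to 323), and 15 Slc12a2 UMIs, 151 CPM (84.4 to 249). The gate that leaves out the markers found in several classes, Dcx and Sox11 among them, held 0 neuroblast-like nuclei. The neuroblast-like levels could therefore not be compared with that gate, and the intervals do not cover this dependence on the markers. No choroid plexus-like nucleus passed either gate.

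Droplets also hold free RNA, so the low levels were set beside genes with a known source. A panel of 12 neuronal genes, among them Snap25, Syt1 and Meg3, was found in glial and endothelial classes at a median of 15.1% to 18.8% of the excitatory neuron-like level, and single genes at 5.50% to 96.7%. Slc12a5 stood at 17.8% to 25.8% in these classes, within the panel's range and, in microglia-like nuclei (25.8%, 14 UMIs), above the median of every class. Free RNA itself was not measured, so these levels cannot be told apart from it and are not read as expression. Atp1b1 stood higher, at 38.8% in oligodendrocyte precursor-like to 57.3% in astrocyte-like nuclei, which was above the median in every such class and, apart from oligodendrocyte-like nuclei, above each of the 12 genes. For Atp1b2, the neuron classes had 3.61% to 8.09% of the astrocyte-like level, against panel medians of 1.87% to 2.42% for 8 astrocyte genes. Single genes of that panel reached 9.80% in excitatory neuron-like, 9.27% in interneuron-like and 5.08% in striatal projection neuron-like nuclei. Atp1b2 lay within the panel's range in each, at 5.64%, 8.09% and 3.61%, so these levels cannot be told apart from free RNA either. Slc12a2 in the neuron classes was 7.70% to 9.80% of the oligodendrocyte-like level, against panel medians of 1.22% to 1.83% for 8 oligodendrocyte genes whose single values reached 5.43%.

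**Figure D2:**
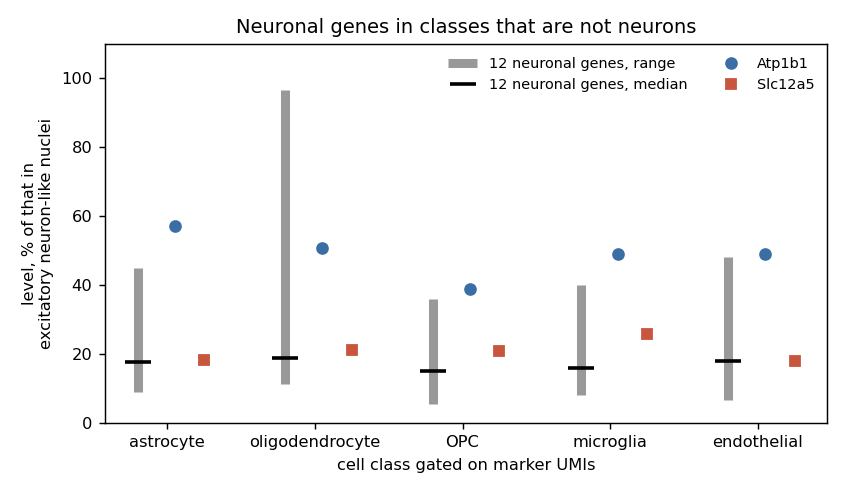
Level in 5 classes that are not neurons, as a percentage of the mean level in excitatory neuron-like nuclei (linear axis from 0). Grey bars span the 12 neuronal panel genes and black marks are their median, blue circles are Atp1b1 and red squares Slc12a5. Slc12a5 lies at 17.8% to 25.8%, within the panel's range, and Atp1b1 at 38.8% to 57.3%.

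The genes most like each member were sought by Pearson correlation of the mean log2(CPM + 1) over the 8 classes, among 8418 genes with at least 50 CPM in some class. These are descriptions over 8 points that share libraries and depth. For Atp1b1 they were Zc3h13 (r = 0.987), Nme7 (0.983), the neighbour that overlaps it, and Odf2 (0.971). Atp1b2 was followed by C030037D09Rik (r = 0.964), Chrdl1 (0.963), a secreted bone morphogenetic protein antagonist, and Gm14964 (0.958). Slc12a2 had Akr1b3 (r = 0.978), the aldose reductase, Secisbp2l (0.975) and Trf (0.972), which encodes transferrin. Beside Slc12a4 stood Ednrb (r = 0.966), an endothelin receptor, Prrx1 (0.964) and Hes5 (0.958), a target of Notch signalling. Trank1 (r = 0.994) and Actl6b (0.988), a chromatin remodeller subunit of neurons, were among the 3 most like Slc12a5.

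Nephrectomy was then compared with sham in each class that had at least 2 libraries of 20 or more nuclei per group, by edgeR's quasi-likelihood test over all genes of the class. None of the 5 genes passed the test in any of 7 classes. Of 35 pairs of gene and class, 25 passed the filter on low counts, 0 were called at an adjusted p under 0.05, and the lowest adjusted p was 0.787. A single pair had an unadjusted p under 0.05. Over all genes, the percentage called was 0% of 9364 in excitatory neuron-like, 0.0158% of 6323 in interneuron-like, 0% of 12848 in striatal projection neuron-like, 0% of 8066 in astrocyte-like, 0% of 7870 in oligodendrocyte-like, 0.0685% of 2920 in oligodendrocyte precursor-like and 0% of 747 in endothelial-like nuclei. At an unadjusted p under 0.05, 469, 320, 554, 356, 307, 183 and 29 genes stood in these classes in the same order. The 25 values held 19 above 0 and 6 below. Over all genes tested, 46.5% (endothelial-like) to 51.7% (oligodendrocyte-like) of a class were above 0. The 25 values repeat 5 genes over classes of the same libraries, so they are not independent and the count is not read as a rise of the members. The median log2 fold change of the members ran from 0.04 in striatal projection neuron-like to 0.48 in endothelial-like nuclei (1 member), beside -0.05 to 0.01 over all genes tested. In simulated data with 2-fold changes the test found 72.4% of changed genes in striatal projection neuron-like nuclei. It found 40.8% to 48.4% in the other neuron classes and astrocyte-like, and 20% to 27.3% in the other classes. Changes of 2-fold could thus be missed in every class, and smaller ones as well. The changed genes were picked at random, so these rates are not those of the members.

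**Figure D3:**
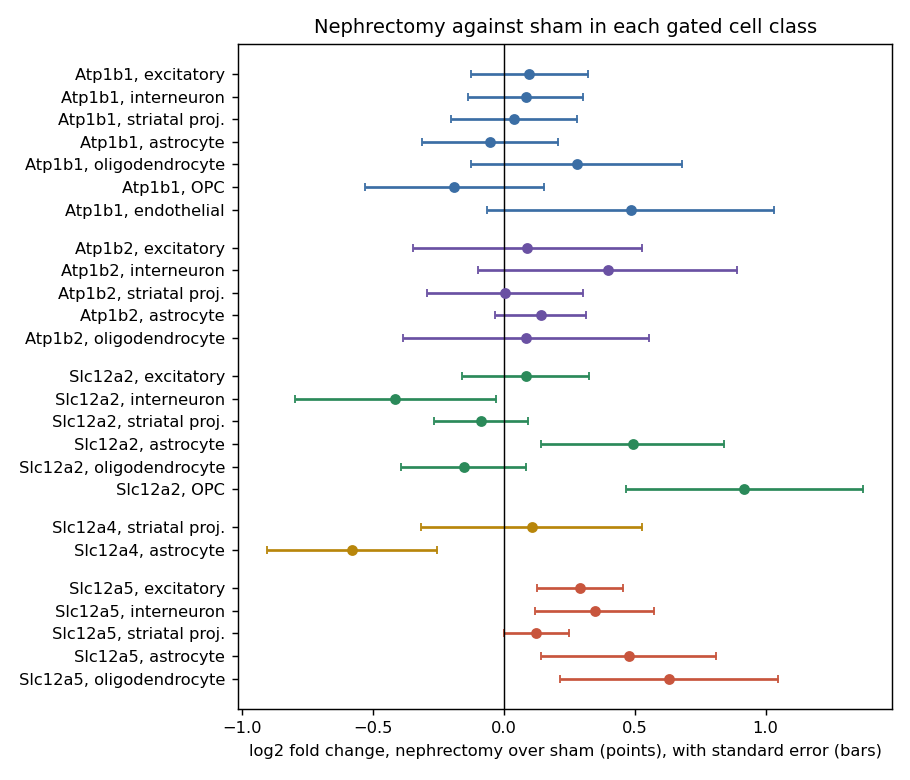
Log2 fold change of nephrectomy over sham (points) with its standard error (bars) for the 25 pairs of gene and class that passed the filter on low counts, coloured by gene. OPC stands for oligodendrocyte precursor. No pair passed the test, and the value farthest from 0 is Slc12a2 in oligodendrocyte precursor-like nuclei at 0.92 ± 0.45.

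Among the pump's beta subunits, Atp1b1 differed by less than its standard error in the 5 classes held by all libraries. Its log2 fold change was 0.10 ± 0.22 in excitatory neuron-like, 0.08 ± 0.22 in interneuron-like and 0.04 ± 0.24 in striatal projection neuron-like nuclei. Astrocyte-like nuclei had -0.05 ± 0.26 and oligodendrocyte-like nuclei 0.28 ± 0.40. These 5 adjusted p-values from edgeR were 0.984 or higher, the groups overlapped in each class, and in each class the sign turned when one or another single library was left out (from -0.18 to 0.38 in striatal projection neuron-like nuclei). Without sham 3 and nephrectomy 1 the values were -0.17, -0.04, -0.08, -0.20 and -0.12 in the order given. In endothelial-like nuclei (45 UMIs) the value was 0.48 ± 0.55. Atp1b2 in astrocyte-like nuclei had 0.14 ± 0.18 (edgeR adjusted p = 0.999). Its 3 sham libraries lay within 388.3 and 394.9 CPM, 2 of the nephrectomy libraries were above them and nephrectomy 1 lay among them.

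Of the chloride exporters, Slc12a5 had values above 0 in every class where it passed the filter, though none passed the test. Interneuron-like nuclei had 167.9, 138.2 and 197.5 CPM in sham and 224.2, 238.5 and 204.5 CPM in nephrectomy libraries. Every nephrectomy library was above every sham library there, an order that 5.79% of the genes tested in this class also had. The log2 fold change was 0.35 ± 0.23 (edgeR adjusted p = 0.979). With the gate that leaves out 4 markers the groups overlapped, at 205 ± 23.4 and 236 ± 74.4 CPM, and the value was 0.24. Excitatory neuron-like nuclei had 0.29 ± 0.16 (edgeR adjusted p = 0.954), and 0.42 without sham 3 and nephrectomy 1. Their groups overlapped, because nephrectomy 1 lay below 2 sham libraries.

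Striatal projection neuron-like nuclei, the best counted class with 4799 Slc12a5 UMIs, had 223.5, 270.7 and 279.9 CPM in sham and 262.2, 294.7 and 316.8 CPM in nephrectomy libraries. The groups overlapped through nephrectomy 1, and the log2 fold change was 0.12 ± 0.12 (edgeR adjusted p = 0.988). The non-coding RNA Meg3, which stays in the nucleus, moved with the groups in these classes. It had 20138 to 20945 CPM in sham and 16194 to 19952 CPM in nephrectomy striatal projection neuron-like nuclei, 22177 to 24680 against 18723 to 20555 CPM in excitatory neuron-like, and 34832 to 35460 against 24699 to 30546 CPM in interneuron-like nuclei. The share of all genes with this order in these classes is not given here. Of the 12 panel genes, Meg3 among them, 2 lay above and 2 below sham in all nephrectomy libraries in excitatory neuron-like nuclei. In interneuron-like nuclei 0 lay above and 2 below, and in striatal projection neuron-like nuclei 1 lay above and 2 below. The part of Meg3 in the Slc12a5 values was not tested. The other 11 panel genes summed to 5074 to 5489 CPM in sham and 5051 to 5358 CPM in nephrectomy striatal projection neuron-like nuclei, and overlapped. They also overlapped in excitatory neuron-like nuclei (6677 to 7586 against 6752 to 7391 CPM) and in interneuron-like nuclei (5114 to 5562 against 4679 to 5619 CPM).

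In astrocyte-like and oligodendrocyte-like nuclei, where Slc12a5 stood near the median of the neuronal panel, its values were 0.48 ± 0.33 and 0.63 ± 0.42. The summed neuronal panel in astrocyte-like nuclei ran from 1677 to 2682 CPM in sham and from 2808 to 6576 CPM in nephrectomy libraries. Without Meg3 it ran from 698 to 1178 and from 1090 to 2421 CPM, and the groups overlapped. In oligodendrocyte-like nuclei the panel also overlapped, at 2546 to 5789 CPM in sham and 2955 to 6892 CPM in nephrectomy libraries. The panel's part in the Slc12a5 values was not tested. Slc12a4 in astrocyte-like nuclei had the lowest value of any member, -0.58 ± 0.32 (edgeR adjusted p = 0.987). The groups overlapped, since nephrectomy 2 (52.9 CPM) was above sham 2 (45.2 CPM). It was -0.87 without nephrectomy 2, -0.37 without sham 1 and -0.0338 with a stricter gate.

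Slc12a2, the importer, did not pass the test in any class. Oligodendrocyte-like nuclei, where it was highest, had -0.15 ± 0.24 (edgeR adjusted p = 0.984), and both the highest library (sham 2) and the lowest (nephrectomy 1) were far from the rest of their groups. In oligodendrocyte precursor-like nuclei, sham 2 and 3 had 78.5 and 77.7 CPM and nephrectomy 2 and 3 had 187.8 and 129.8 CPM. Both nephrectomy libraries were above both sham libraries, an order shared by 16.2% of the genes tested in that class. The log2 fold change was 0.92 ± 0.45 from 44 UMIs, with an adjusted p of 0.787 by edgeR. Before adjustment it was 0.0477, the single value under 0.05 among the members. Atp1b2 and Slc12a4 were also above sham in both nephrectomy libraries of this class and Slc12a5 below (an order of 19.0% of the genes tested), with 28, 15 and 26 UMIs, too few to pass the filter.

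Microglia-like nuclei reached 20 nuclei in 2 sham libraries and 1 nephrectomy library, and were tested with other gates alone. With the gate that leaves out 4 markers (2 libraries per group, 0.163% of 1227 genes called), Slc12a2 had 165 ± 27.9 CPM in sham and 267 ± 50.2 CPM in nephrectomy, a log2 fold change of 0.74 ± 0.46 (edgeR adjusted p = 0.995). Atp1b1 had 0.58 ± 0.44 there. With a looser gate (3 per group, 0% of 1476 genes called) the values were 0.50 ± 0.42 for Slc12a2 and 0.68 ± 0.53 for Atp1b1, with adjusted p-values of 0.992. The other 3 genes did not pass the filter with either gate.

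The ratio of Slc12a5 to Slc12a2 UMIs in a library sets the exporter against the importer. UMIs are not divided by gene length, so only differences between groups are read from it. In interneuron-like nuclei the log2 ratio was 1.52, 0.76 and 2.13 in sham 1 to 3 and 1.76, 2.01 and 3.03 in nephrectomy 1 to 3. The groups overlapped, and the means were 1.47 ± 0.69 and 2.26 ± 0.67 (SD, n = 3 each; exact permutation p = 0.3, adjusted p = 0.45). The difference of 0.80 was 0.29 with the looser gate and 0.20 with the gate that leaves out 4 markers. It was 0.44 without sham 2 and 0.41 without nephrectomy 3, and 1.13 without sham 3. Values in excitatory neuron-like nuclei were 2.02 ± 0.22 and 2.1 ± 0.52 (exact permutation p = 0.8). In the striatal class they were 2.27 ± 0.20 and 2.47 ± 0.25 (exact permutation p = 0.2). No p under 0.1 is possible with 3 libraries a group.

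**Figure D4:**
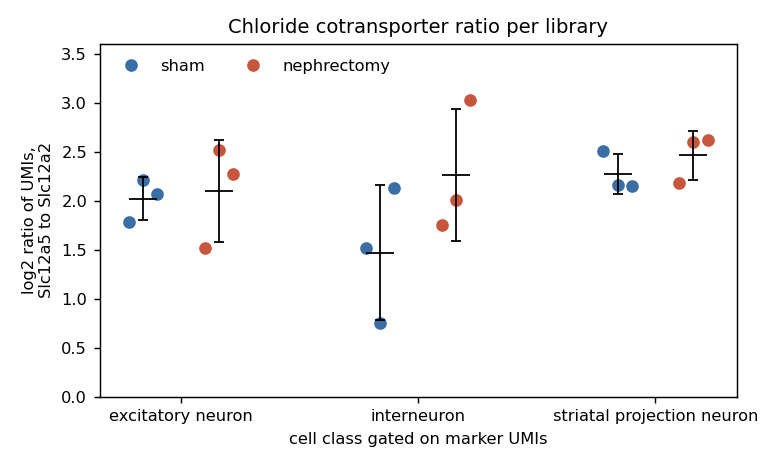
Log2 ratio of Slc12a5 to Slc12a2 UMIs in the 3 neuron classes (axis from 0). A point is a library, blue for sham and red for nephrectomy, and black marks are the mean with its SD. The groups overlap in each class, with means of 1.47 and 2.26 in interneuron-like nuclei.

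The ratio of Atp1b1 to Atp1b2 UMIs was compared in the same way. In astrocyte-like nuclei the log2 ratio was -0.29 ± 0.56 in sham and -0.37 ± 0.53 in nephrectomy libraries (exact permutation p = 1). In the neuron classes it was higher, at 4.89 ± 0.44 and 4.55 ± 0.37 in excitatory neuron-like, 5.08 ± 0.79 and 4.19 ± 0.44 in interneuron-like, and 5.04 ± 0.82 and 5.03 ± 0.03 in striatal projection neuron-like nuclei. The groups overlapped in all 4 classes, with exact permutation p-values from 0.2 to 1 (adjusted p from 0.8 to 1). Atp1b2 in the neuron classes cannot be told apart from free RNA, so these ratios are not read as the subunit make-up of neurons. A library held 5 to 26 Atp1b2 UMIs in excitatory neuron-like and 1 to 25 in interneuron-like nuclei. The interneuron-like value of sham 2 rests on 1 Atp1b2 UMI. The difference there, -0.89, was -0.53 without sham 2 and -1.32 without sham 1, -0.24 with the looser gate and -0.44 with the gate that leaves out 4 markers.

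The other genes of the pathway were taken as a list of 29: alpha subunits, the remaining beta subunits, FXYD and NKAIN regulators, other Slc12 cotransporters, and the WNK kinases with their partners, which switch the cotransporters by phosphorylation. Between 2 (endothelial-like) and 23 (striatal projection neuron-like) of the 29 passed the filter in a class, and 0 were called in any class by edgeR. Values above and below 0 numbered 6 and 11 in excitatory neuron-like nuclei. They numbered 8 and 6 in interneuron-like and 11 and 12 in striatal projection neuron-like nuclei. Astrocyte-like nuclei had 8 and 7, oligodendrocyte-like 7 and 8, oligodendrocyte precursor-like 2 and 4, and endothelial-like 1 and 1. Median log2 fold changes of the list in these classes lay between -0.13 and 0.08.

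Wnk1, a kinase upstream of the cotransporters, was among the best counted of them. It had 1357 CPM and a log2 fold change of -0.13 ± 0.19 in oligodendrocyte-like nuclei, the class where Slc12a2 was highest. In excitatory neuron-like, interneuron-like and striatal projection neuron-like nuclei it had 302, 368 and 359 CPM, with -0.14 ± 0.16, -0.14 ± 0.20 and -0.06 ± 0.11. The groups overlapped in these 4 classes. Astrocyte-like nuclei had 397 CPM of Wnk1 with 0.04 ± 0.17, and 124 CPM of Wnk2, a kinase of the same family, with -0.23 ± 0.21. Among pump genes in oligodendrocyte-like nuclei, Nkain2, which encodes a protein that binds the pump, had 207 CPM and -0.20 ± 0.29, and Atp1b3, the beta 3 subunit, 150.1 CPM and 0.11 ± 0.22. Groups overlapped for each of these as well. In endothelial-like nuclei (85 UMIs) Wnk1 had -1.10 ± 0.51 (edgeR adjusted p = 0.998), with both nephrectomy libraries below sham, an order of 14.9% of the genes tested.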

How the data were processed

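Nuclei were sorted by flow cytometry and sequenced with the 10x Chromium 3′ kit, per the labels' protocols. Each library's deposited matrix holds raw counts of UMIs for 32285 genes. Alignment was to mm10 and counted intronic reads, per the labels' protocols, which name Cell Ranger 3.0. The submitters' processing notes name 2.1.1 and the matrix headers 6.0.1, and which applies is not known.

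Barcodes needed 500 detected genes or more and no more than 5% of UMIs from mitochondria. Of 42589, 40685 passed and 9702 were gated. Doublets were not removed, other than that nuclei with markers of several classes fell out at the gate. UMIs were summed per library and class, without thinning, where a library had 20 or more nuclei. Summed UMIs ran from 22416 (endothelial-like) to 4798129 (striatal projection neuron-like). Counts were tested in edgeR 4.0.16 (robust quasi-likelihood, TMM, filterByExpr, Benjamini-Hochberg, 2-sided, threshold 0.05), each class alone. The test was also run on simulated data. Ratios add 0.5 UMI to both genes and were compared by exact 2-sided permutation.

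The members, lists, markers and tests were chosen with earlier results of these data known. Members were described in every class. Their fold changes are named where the mean CPM is at least 1/3 of that in the highest tested class, and others were named after their values were seen. Pathway genes are named from the 4 best counted in a class, and some of these and of the most alike genes are not reported here. Alternatives were DESeq2 1.42.0 (Wald test, and its size factors in edgeR), limma 3.58.1 voom, no filter, other gates, at least 1000 genes, called doublets removed, replicate number as a block, fewer libraries and a pseudocount of 10. Python 3.11.15 and R 4.3.3 were used.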

Additional observations from a re-analysis of the deposited data

Results flagged for a closer look

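Over the 6 libraries, Slc12a5 in astrocyte-like nuclei of nephrectomy 1 stood at 105.5 CPM, and the next library at 50.3 CPM. Its gap to the next library was 0.748 of the whole range, above the limit of 0.625 for 6 libraries. The summed neuronal panel was also highest in that library and class, at 6576 CPM against 1677 to 3041 CPM in the others, and its part was not tested. Slc12a4 in endothelial-like nuclei of sham 2 stood at 20.7 CPM from a single UMI, with 0 in the other 3 libraries, so it reflects 1 counted molecule. Chance flags about 1 in 20 groups, and 35 groups were checked.

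Slc12a5 was higher in all nephrectomy libraries in interneuron-like nuclei. In oligodendrocyte precursor-like nuclei it was lower in the 2 nephrectomy libraries that had enough nuclei. The log2 ratio of the group means was 0.41 in the former and -1.15 in the latter. The second rests on 26 UMIs in 2 libraries per group, too few to pass the filter, at a level not told apart from free RNA. Of the genes tested, 5.79% had the first order in interneuron-like nuclei and 19% the second in oligodendrocyte precursor-like nuclei. Slc12a5 was not among the genes tested in the latter class. With the gate chosen after the marker counts were seen, the interneuron-like groups overlapped. The difference between the classes was not tested.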

How the results depend on the processing

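No member was called in any of 196 refits of 12 named pairs of gene and class, where the lowest adjusted p was 0.685. Slc12a5 in the 3 neuron classes and Atp1b2 in astrocyte-like nuclei stayed above 0, and Slc12a4 in astrocyte-like nuclei below 0, in every refit. For each value that changed, the cause was not tested.

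Atp1b1 turned below 0 without sham 3 and nephrectomy 1 in excitatory neuron-like (-0.17), interneuron-like (-0.0359), striatal projection neuron-like (-0.0818) and oligodendrocyte-like nuclei (-0.12). In excitatory neuron-like nuclei it was also -0.0877 with at least 1000 genes per nucleus and -0.0304 with the gate that leaves out 4 markers, which gave -0.0353 in interneuron-like nuclei. The stricter gate gave -0.0046 in striatal projection neuron-like nuclei. In astrocyte-like nuclei Atp1b1 turned above 0 with the replicate block (0.0273), at least 1000 genes (0.0186), the looser gate (0.13) and the gate without 4 markers (0.0222). Slc12a2 in oligodendrocyte-like nuclei was 0.0020 with voom and 0.0030 with the stricter gate. Leaving out 1 library at a time, Atp1b1 ranged from -0.12 to 0.36 in excitatory neuron-like, -0.15 to 0.47 in interneuron-like, -0.18 to 0.38 in striatal projection neuron-like, -0.32 to 0.22 in astrocyte-like, -0.29 to 0.52 in oligodendrocyte-like and -0.0734 to 0.99 in endothelial-like nuclei, with a lone library assumed to vary like the rest, and Slc12a2 from -0.32 to 0.0581 in oligodendrocyte-like nuclei.

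Genes called without a filter on low counts numbered 3 in excitatory neuron-like, 5 in interneuron-like, 6 in striatal projection neuron-like, 3 in astrocyte-like and 3 in endothelial-like nuclei. Without sham 3 and nephrectomy 1 there were 3 in interneuron-like and 3 in endothelial-like nuclei. In interneuron-like nuclei the looser gate and the gate without 4 markers gave 0, and in oligodendrocyte precursor-like nuclei DESeq2 and voom gave 0 and the gate without 4 markers 1. Without 1 library, counts ranged from 0 to 1 in excitatory neuron-like, 0 to 7 in interneuron-like, 0 to 1 in astrocyte-like, 2 to 7 in oligodendrocyte precursor-like and 0 to 14 in endothelial-like nuclei.

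The Atp1b1 to Atp1b2 difference (nephrectomy minus sham) in striatal projection neuron-like nuclei turned to 0.25 with the stricter gate, 0.0036 with at least 1000 genes and 0.0306 with the gate without 4 markers. In astrocyte-like nuclei it was 0.11 with the looser gate and 0.10 with the gate without 4 markers. Without 1 library it ranged from -0.36 to 0.44 and from -0.39 to 0.15 in these classes, and the Slc12a5 to Slc12a2 difference in excitatory neuron-like nuclei from -0.12 to 0.38. Atp1b1 in interneuron-like over excitatory neuron-like nuclei reached the exact permutation p of 0.03125 with the looser gate (log2 difference 0.59), at least 1000 genes (0.39) and the gate without 4 markers (0.62), as did Slc12a2 in oligodendrocyte-like over microglia-like nuclei with the looser gate (1.76). Slc12a5 in excitatory neuron-like over striatal projection neuron-like nuclei was -0.0896 with the stricter gate, in 2 libraries.

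Whether same-numbered libraries were paired is not known. Their deviations correlated between -0.24 and 0.22, against -0.37 to 0.32 for libraries of different numbers. In 0 of 5 classes did every sham library correlate best with its own number, though some sham libraries did. With so few libraries per group, these correlations cannot decide whether the numbers mark pairs. With the replicate block, 2 genes were called in endothelial-like and 3 in oligodendrocyte precursor-like nuclei, and no member. The stricter gate could not be fitted in excitatory neuron-like, interneuron-like, oligodendrocyte precursor-like and endothelial-like nuclei, nor at least 1000 genes in the last 2. Depth limits Slc12a4 most, with 11 to 63 UMIs in the neuron classes.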
